A study of Mus musculus with 2 samples.

Results

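The miR-126 locus of the mouse holds 2 annotated microRNA genes, Mir126a and Mir126b, which overlap on opposite strands inside the gene Egfl7. They were picked by their GENCODE M21 gene names out of the 2202 miRNA genes of each count table, and both were found. The data are microRNA-seq libraries, made from total RNA and kept to short RNAs, of adrenal glands from female B6CASTF1/J mice aged 36 days. B6CASTF1/J mice are first-generation hybrids of a C57BL/6 parent and a CAST parent of wild descent. There was 1 group of 2 libraries, which the labels number as biological replicates 1 and 2, with no treatment and no other tissue, sex or age. The labels number the source females separately but give both the same donor identifier, so SDs describe the spread between these libraries, which may be technical. Unless another error is named, p-values set the difference between these libraries against counting error alone.

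A microRNA (miRNA) is cut out of a folded hairpin transcript, and either arm of the hairpin can be loaded into the silencing complex, where bases 2 to 8, the seed, choose the messages to be repressed. Mir126a is the classical miRNA gene of endothelial cells, the lining of blood vessels, where it is made from an intron of Egfl7, which encodes a secreted protein of the vessel wall. In mice its product keeps vessels intact and strengthens the response to vascular growth factors by lowering inhibitors of that signal. It is also known from blood stem cells and platelets. Mir126b is the gene annotated on the other strand of the same DNA. The adrenal cortex and medulla are threaded with fenestrated capillaries that carry away steroids and catecholamines.

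Mir126a (ENSMUSG00000065540.1) lies on chromosome 2, chr2:26591357-26591429 of mm10, plus strand, and is 73 bases long. Mir126b (ENSMUSG00000105799.1) lies at chr2:26591363-26591420, minus strand, is 58 bases long and is nested wholly within Mir126a, of which it covers 79.5%. Among the 9 Egfl7 transcripts that span the hairpin, 8 have it in an intron, and it is intron 7 of the protein-coding transcripts Egfl7-201, Egfl7-202 and Egfl7-212. The other transcript, Egfl7-206, is a retained-intron form that holds the hairpin in its exon 4. A transcript of the gene Gm20532 also spans it, as intron 3. Egfl7 and Gm20532 are both on the plus strand, the strand of Mir126a. The nearest other miRNA genes lie far off and had almost no reads. Mir6996 in Notch1, 121 kb to the left, had 0 counts in replicate 1 and 1 in replicate 2, and Gm24049, 810 kb to the right, had 0 in both.

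The hairpins are shown because the strand of a read is what separates the 2 genes. In these RefSeq sequences (GRCm38.p6, written 5′ to 3′), capitals in a hairpin mark the mature arms held in the RefSeq table, and capitals in a mature sequence mark the seed.
Mir126a hairpin: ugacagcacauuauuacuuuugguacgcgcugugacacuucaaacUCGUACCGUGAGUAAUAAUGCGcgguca
Mir126b hairpin: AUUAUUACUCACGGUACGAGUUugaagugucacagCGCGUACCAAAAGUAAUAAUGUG
miR-126a-3p: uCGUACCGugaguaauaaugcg
miR-126b-5p: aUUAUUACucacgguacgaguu
miR-126b-3p: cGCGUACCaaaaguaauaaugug
The other mature product of Mir126a, miR-126a-5p, has no entry among these RefSeq sequences, so its seed was not searched. The whole Mir126b hairpin is the reverse complement of bases 7 to 64 of the Mir126a hairpin. Read 5′ to 3′, the longest run of letters that both hairpins share is 10 bases. None of the 3 seeds occurred in a mature form of another gene among the 1738 mature sequences of the table, so no seed family could be formed around these products. No other annotated miRNA gene shares a stretch of 20 bases with Mir126a on either strand.

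**Figure D1:**
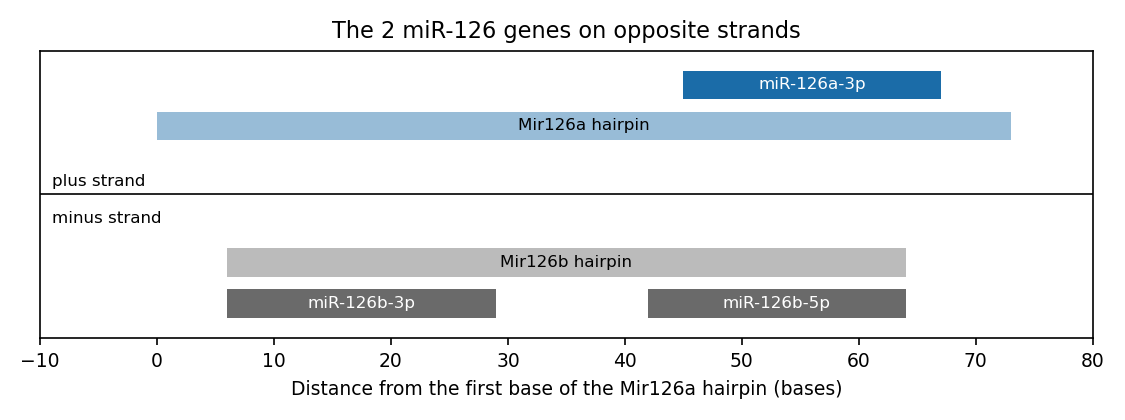
Map of the miR-126 locus, with distance in bases from the first base of the Mir126a hairpin, plus-strand features above the line and minus-strand features below it. Pale bars are hairpins of 73 and 58 bases and dark bars are the mature sequences in the RefSeq table. miR-126a-3p runs 3 bases past the end of Mir126b.

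The deposited tables give each gene a count of reads on its sense strand, on its antisense strand and without regard to strand. Replicate 1 held 5397603 sense miRNA counts and replicate 2 held 3029977, a difference of 1.78-fold in depth. Levels are given as CPM: the sense count is divided by the library's sense miRNA total and multiplied by 1000000. They are not divided by gene length, because 1 read covers a mature miRNA. Intervals and count limits cover counting error only, since PCR copies cannot be told from separate molecules.

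Mir126a had the highest mean level of all 2202 genes in counts of uniquely mapped reads, and its level in replicate 1 was 1.92 times that in replicate 2. Multimapped reads, 28.5% of all reads in replicate 1 and 30.6% in replicate 2, count for no gene. Genes with near-identical copies may therefore be undercounted in this ranking and in the shares below. It had 719007 sense counts in replicate 1 and 209931 in replicate 2. That is 133209 CPM in replicate 1 (95% Wilson interval 132922 to 133495) and 69285 CPM in replicate 2 (68999 to 69571). The mean was 101247 ± 45201 CPM (SD, n = 2), a coefficient of variation of 44.6%. Replicate 1 was the high library.
Mir126a took 13.3% of the sense miRNA counts of replicate 1 and 6.93% of those of replicate 2. As a share of all sequenced reads, including those that mapped nowhere or to several places, it took 5.15% and 2.79%. Of the counted miRNA reads, 1 in 7.51 came from this gene in replicate 1 and 1 in 14.4 in replicate 2.

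Mir126b was at the other end of the detected range. It had 29 sense counts in replicate 1 and 14 in replicate 2. Its level was 5.37 CPM in replicate 1 (95% Wilson interval 3.74 to 7.72) and 4.62 CPM in replicate 2 (2.75 to 7.76), with a mean of 5.00 ± 0.532 CPM (SD, n = 2). The intervals overlap almost entirely. With at least 10 counts in both libraries as the rule for detection, both members were among the 339 detected genes, which are 15.4% of those annotated. Mir126b came 326th of the 339 by mean level. It stood above the limit that a count of 0 sets, 0.556 CPM for replicate 1 and 0.990 CPM for replicate 2. Its nearest neighbours in that order were Mir6715 with 36 and 12 counts and Mir129-1 with 32 and 12, and their levels overlap its own. Mir126a exceeded it 24793-fold in replicate 1 and 14995-fold in replicate 2.

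Which gene led the profile depended on the library. Mir126a ranked first in replicate 1, ahead of Mirlet7g, a let-7 gene of the developmental timing pathway, and second to it in replicate 2. The level of Mir126a was 1.47 times that of Mirlet7g in replicate 1 and 0.683 times in replicate 2. Mirlet7g had 90540 CPM in replicate 1 and 101505 CPM in replicate 2, a narrower span than that of Mir126a.
Against Mirlet7b the ratio was 1.94 in replicate 1 and 1.13 in replicate 2. Against Mir378a, a gene of mitochondrial metabolism, it was 2.40 and 1.03, so in replicate 2 these genes had nearly equal levels. Against Mir10a, of a Hox cluster, it was 3.07 and 1.13, and against Mirlet7i 3.39 and 1.58. Mir126a was above these 4 genes in both libraries, but with a lead of only 1.03-fold to 1.13-fold over Mirlet7b, Mir378a and Mir10a in replicate 2. The means of Mirlet7g (96023 ± 7753 CPM), Mirlet7b (65047 ± 5176 CPM) and Mir378a (61401 ± 8455 CPM; SD, n = 2 each) lay within 1 SD of the mean of Mir126a, and those of Mir10a and Mirlet7i lay beyond it. The smallest two-sided p that an exact paired test of 2 libraries can give is 0.5.

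**Figure D2:**
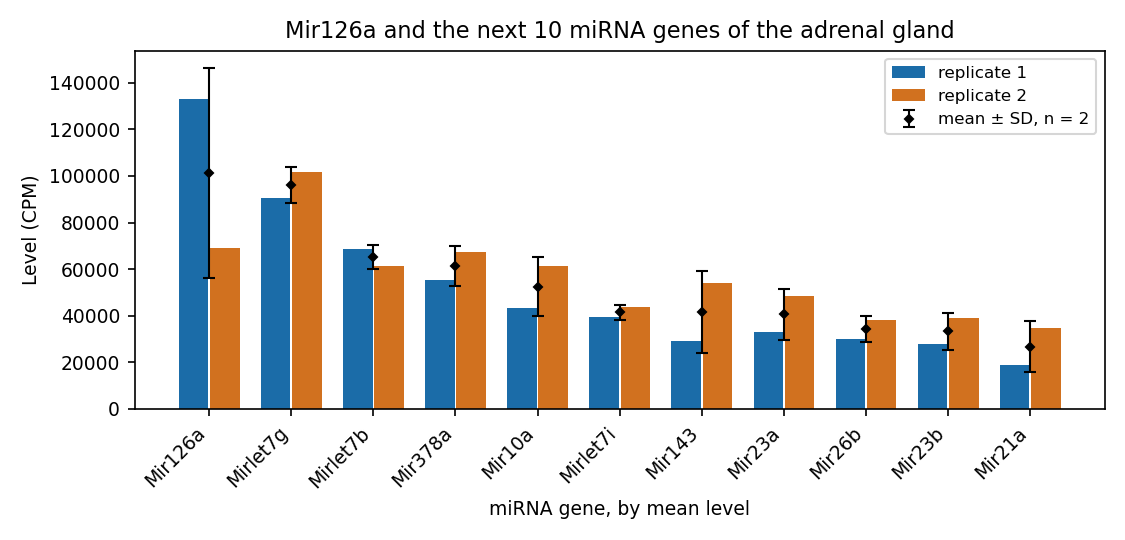
Level in CPM of Mir126a and the 10 genes that follow it by mean level. Bars are single libraries, and diamonds with error bars are mean ± SD of the 2 libraries. Mir126a spans 69285 to 133209 CPM, and Mirlet7g, at 90540 to 101505 CPM, falls inside that span.

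Mir126a was the leading gene of its chromosome in both libraries. Of the 259 miRNA genes on chromosome 2, 21 were detected, and Mir126a held 83.6% of their counts in replicate 1 and 61.7% in replicate 2. The next gene there was Mir10b, with 15976 CPM in replicate 1 and 33235 CPM in replicate 2. Of the 969 miRNA genes that lie inside a protein-coding gene on the same strand, 149 were detected, and Mir126a held 23.4% and 13.2% of their counts. It ranked first among them in replicate 1 and second to Mirlet7g in replicate 2. Removing Mir126a from the library total would raise the CPM of every other gene by 15.4% in replicate 1 and by 7.44% in replicate 2. This alone moves every other ratio between the libraries by 0.10 on the log2 scale, towards replicate 1.

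The libraries were then compared with TMM scaling, which sets the library sizes on the assumption that most genes do not differ. The test was an exact two-sided binomial test against counting error. It was adjusted over the 434 genes whose counts in the 2 libraries summed to 10 or more. Mir126a was 1.56-fold higher in replicate 1 (95% interval 1.55 to 1.57), a log2 ratio of 0.64 of replicate 1 over replicate 2. Its Benjamini-Hochberg adjusted p in the exact binomial test was too small for the software to represent. Of the tested genes 58.5% were called, 30.2% with a higher level in replicate 1 and 28.3% with a higher level in replicate 2, so a call by itself does not set Mir126a apart. The test compares these 2 libraries and no conditions. Abundant genes, those with 1000 or more sense counts in each library, numbered 112, and 103 of them were called. Among the 112, 39 had a larger log2 ratio in size than Mir126a and 72 a smaller one, and the median size was 0.46.
When edgeR's pooled spread between the libraries, a coefficient of variation of 41.6% over all genes, took the place of counting error, the exact negative binomial test did not call Mir126a (adjusted p = 0.999). With that error edgeR called 0 of the 434 genes (0%), and 24 had an unadjusted p under 0.05. That spread was fitted to the same 2 libraries as 1 group and so holds the very differences it tests, which leaves little room for any call.

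Mir126b had a log2 ratio of -0.08 and was not called (exact binomial test, adjusted p = 0.903). Its fold of replicate 1 over replicate 2 was 0.944, with a 95% interval of 0.483 to 1.93, so a difference as large as that of Mir126a is inside the interval. Its direction depended on the scaling, since the log2 ratio turned to 0.21, towards replicate 1, with total counts in place of TMM. All ratios move by 0.30 between these scalings, and the split of called genes is 131 towards replicate 1 and 123 towards replicate 2 with TMM, and 189 and 83 with total counts. The ratio of Mir126a to Mir126b was 1.65 times as high in replicate 1 as in replicate 2, and this was not past the threshold (Fisher's exact test, two-sided, p = 0.142).

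**Figure D3:**
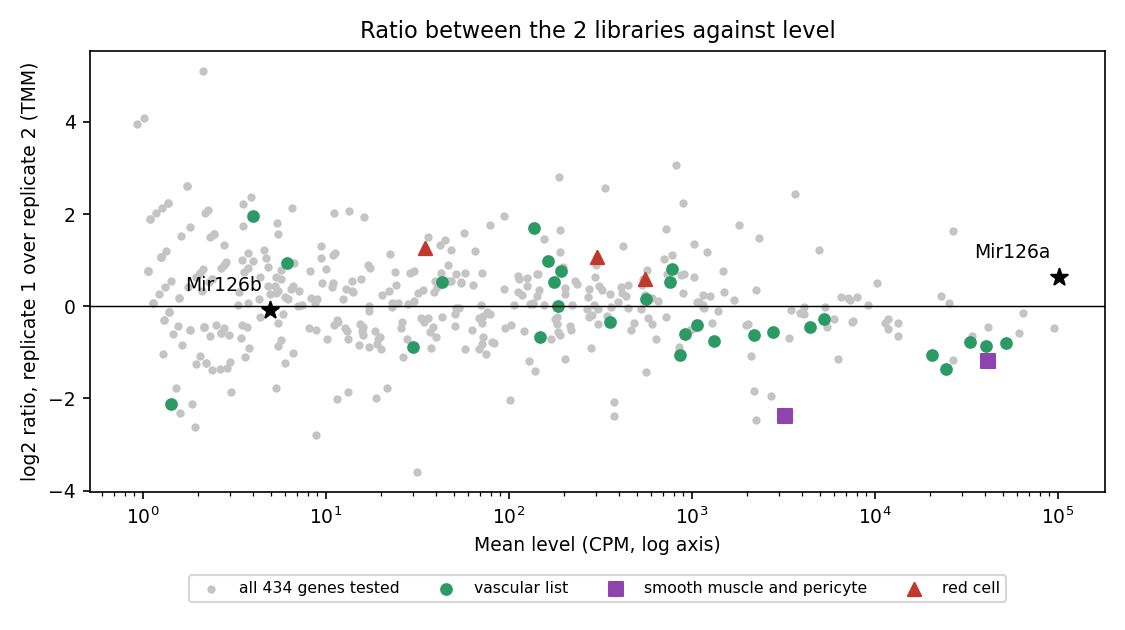
log2 ratio of replicate 1 over replicate 2 with TMM scaling (vertical) against mean CPM on a log axis (horizontal) for the 434 genes tested. Stars are the 2 members, at 0.64 for Mir126a and -0.08 for Mir126b, and the coloured marks are the vascular, smooth muscle and red-cell lists. Mir126a stands at the far right above the line, while the vascular genes above 1000 CPM lie below it with this scaling; with total counts Mir27b crosses it.

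The count columns show on which strand, and where, the reads of the locus lay. Without strand, Mir126a had only 11 counts in replicate 1 and 3 in replicate 2, and Mir126b had 0 in both. A read that touches both genes is ambiguous when strand is ignored, so the 11 and 3 reads are those that touched only the flanks of Mir126a, 6 bases on one side and 9 on the other. They are 0.00153% and 0.00143% of its sense counts, and all other Mir126a reads reached into the 58 shared bases, as miR-126a-3p does by 19 of its 22 bases. The counts do not separate the 5p arm from the 3p arm.
In the antisense column the genes change places. Mir126b had 718996 antisense counts in replicate 1 and 209928 in replicate 2, exactly the Mir126a sense reads without those 11 and 3. Mir126a had 29 and 14 antisense counts, the same numbers as the Mir126b sense counts, so no minus-strand read touched only the flanks. The locus thus made up 59.6% of all reads that were ambiguous without strand in replicate 1 and 40.6% in replicate 2. It made up 59.5% and 40.6% of the antisense column over all genes.

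**Figure D4:**
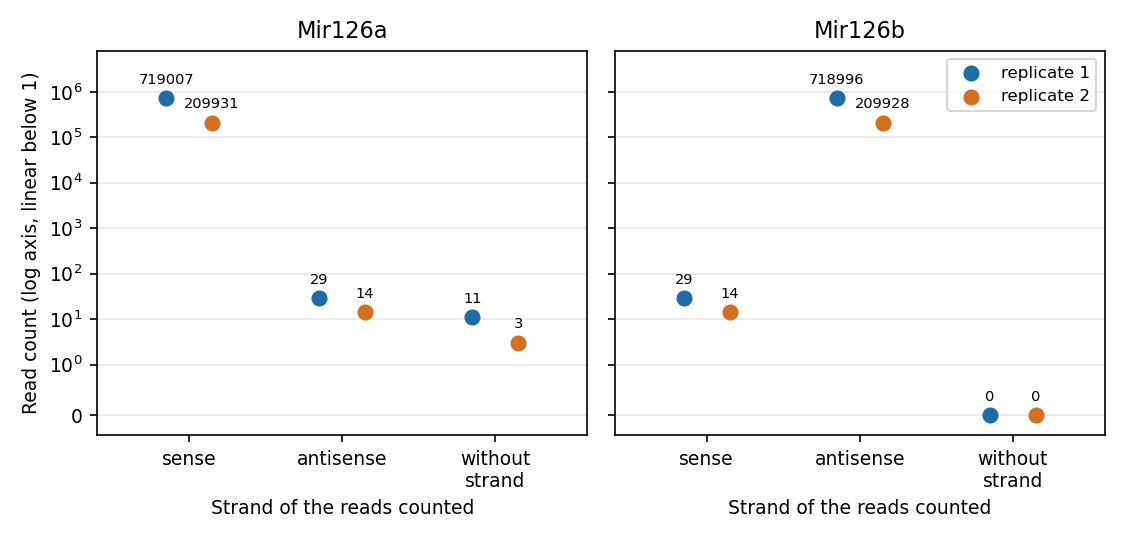
Read counts of Mir126a (left panel) and Mir126b (right panel) by strand, on a log axis that is linear below 1. Blue is replicate 1 and orange is replicate 2. The sense counts of Mir126a, 719007 and 209931, return as the antisense counts of Mir126b less 11 and 3 reads, and the counts without strand nearly vanish.

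Minus-strand reads were rare at the locus but not absent. Mir126b made up 0.00403% of the sense counts of the pair in replicate 1 (95% Wilson interval 0.00281 to 0.00579%) and 0.00667% in replicate 2 (0.00397 to 0.0112%). The intervals overlap. The annotation holds 32 pairs of miRNA genes that overlap on opposite strands, and in 12 of them the leading gene had at least 1000 sense counts in both libraries.
In 8 of the 11 other such pairs the minor gene had 0 counts in both libraries, among them Gm25301 at Mir378a, Gm25927 at Mirlet7e and Gm24083 at Mir191. At Mir378a, which had 299149 and 204161 sense counts, a count of 0 allows a share of up to 0.0010% and 0.00147%. This was the only one of the 11 pairs deep enough for a count of 0 to fall below the Mir126b share in both libraries. Mir30f, on the other strand of Mir30e, had 0 counts in replicate 1 and 1 in replicate 2, against 59435 and 37964 for Mir30e. Mir299b at Mir299a had 1 and 2. Only Mir3544 at Mir337 also had at least 10 counts in both libraries, with 60 and 16 against 6936 and 3106 for Mir337. That made 0.858% and 0.512% of its pair, the most even split of the 12. The minor share was numerically lower than that of Mir126b in both libraries in 9 of the 11 pairs, most of them too shallow for 0 counts to show a difference.

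Genes without an annotated partner on the opposite strand give a comparison for antisense reads. Whether such reads are stray or come from an unannotated product was not tested. Of 100 such abundant genes, 93 had 0 antisense reads in replicate 1 and 94 in replicate 2. Summed over the 100, antisense reads made 0.0118% in replicate 1 and 0.0161% in replicate 2, above the Mir126b share in both. Most of these reads lay at 1 gene, Mir203, with 444 of the 480 antisense reads in replicate 1 (9.10% of its own reads) and 374 of the 398 in replicate 2 (3.24%). Without Mir203 the summed share would lie below the Mir126b share in both libraries. Mir130a, with 11 and 4 antisense reads (0.0489% and 0.0284%), and Mir708, with 8 and 10 (0.133% and 0.214%), also stood above Mir126b in both libraries. In all, 4 genes in replicate 1 and 3 in replicate 2 had a share above that of Mir126b. Most of the 100 genes are too shallow to show a share as small as that of Mir126b. A gene needs 74383 sense counts in replicate 1 and 44988 in replicate 2 for 3 reads to be expected at that share. In each library 14 genes were that deep, and 11 of them in replicate 1 and 12 in replicate 2 had 0 antisense reads.
The genes with antisense reads were named after their values were seen, and the deep ones among them were Mirlet7b with 12 and 8 reads (0.00324% and 0.00430%), Mir322 with 3 and 1 (0.00363% and 0.00128%) and Mir21a with 1 and 0. The Mir126b shares were above those of these deep genes, but the intervals of Mir126b in both libraries hold the values of Mirlet7b. Summed over the 14 deep genes there were 16 antisense reads on 2754129 sense reads in replicate 1 and 9 on 1809252 in replicate 2.

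**Figure D5:**
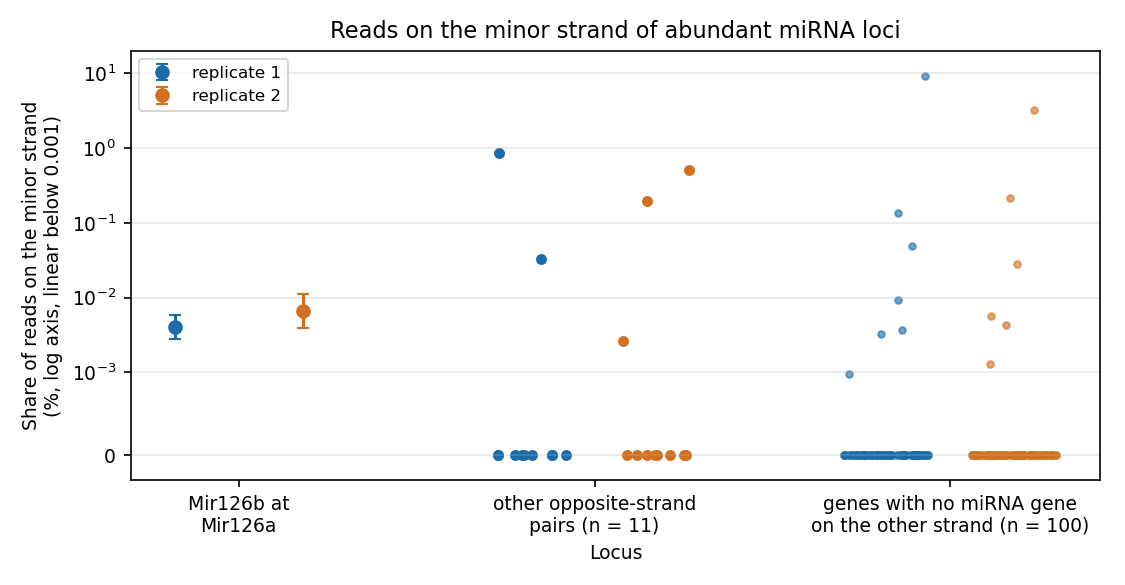
Share of reads on the minor strand in percent, on a log axis that is linear below 0.001, for Mir126b at Mir126a (with 95% Wilson intervals), 11 other opposite-strand pairs and 100 abundant genes without an opposite-strand partner. Each point is 1 locus in 1 library, blue for replicate 1 and orange for replicate 2. Mir126b sits at 0.00403% and 0.00667%, above the row of loci at 0 and below a few loci with higher shares.

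A list of 28 other miRNA genes known from work on endothelial cells and vessel growth was read beside Mir126a. It was drawn up with earlier results of these data known and is described by counts alone. Of its genes, 26 were detected. Together the 28 had 157380 CPM in replicate 1 and 230355 CPM in replicate 2, so Mir126a alone reached 0.846 times their sum in replicate 1 and 0.301 times in replicate 2. Multimapped reads are left out, so the sum may be low for genes numbered as copies, such as Mir24-1 and Mir24-2.
More of its genes were called towards replicate 2 than on the side of Mir126a. Of its 28 tested genes 9 were called towards replicate 1, 17 towards replicate 2 and 2 were not called, where 30.2% and 28.3% of all tested genes were called in these directions. Most of the list was abundant, and of all abundant genes 92.0% were called. The abundant genes were not split by direction, so the lean of the list towards replicate 2 is not set apart from theirs. After Mir126a, the genes outside the list with the highest mean level were Mirlet7g, Mirlet7b, Mir378a and Mirlet7i. They too leaned towards replicate 2 with TMM, with log2 ratios of -0.47, -0.14, -0.58 and -0.46. Mirlet7b turns towards replicate 1 with total counts, at 68707 CPM in replicate 1 and 61387 CPM in replicate 2. The list had a median log2 ratio of -0.43 against 0.08 over all 434 genes, of which 112 were abundant. With total counts 11 were called towards replicate 1 and 14 towards replicate 2, against 189 and 83 over all genes.
The 6 most abundant detected genes of the list were all called higher in replicate 2 with TMM, although for Mir27b not with total counts. Most of the top genes outside the list leaned the same way, as given above, so this direction does not set the list apart. Mir10a, which damps endothelial inflammation, had a log2 ratio of -0.80, with 43451 CPM in replicate 1 and 61349 CPM in replicate 2. Mir23a and Mir23b, which belong to related clusters enriched in endothelium, had log2 ratios of -0.86 and -0.79. Mir10b, which promotes vessel sprouting in zebrafish, had -1.36, and Mir322, whose human counterpart responds to low oxygen in endothelium, had -1.06. Mir27b, from the cluster of Mir23b, had a log2 ratio of -0.27 with TMM, but 5367 CPM in replicate 1 and 5262 CPM in replicate 2, so its direction turns with total counts. Among the 9 genes of the list called on the side of Mir126a, log2 ratios ran up to 1.95 for Mir19b-1, which had only 36 counts in replicate 1 and 4 in replicate 2. Mir210, induced by low oxygen, had 1.70 and Mir92-1, of the miR-17 cluster, had 0.80, and these 3 were named after their values were seen.

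The gene lists of other cell types varied in their own ways between the libraries, and their part in the difference of Mir126a was not tested. In bulk tissue, fewer cells of a type and less RNA per cell cannot be told apart. The smooth muscle and pericyte genes, which mark the mural cells of the same vessels, went the other way from Mir126a, with 30240 CPM in replicate 1 and 59237 CPM in replicate 2 over both genes. Mir143 had 28989 CPM in replicate 1 and 53980 CPM in replicate 2, and Mir145a had 1251 and 5257. Mir126a was therefore 4.60 times as high as Mir143 in replicate 1 and 1.28 times in replicate 2.
The genes of other lineages split between the libraries, and their calls stand beside 58.5% called over all tested genes and 92.0% over the abundant ones, so a class with every gene called is near that background. The red-cell genes, 3 of 3 detected and all called, were higher in replicate 1, with a summed level of 1210 CPM in replicate 1 and 576 CPM in replicate 2. They were led by Mir451a, with 722 CPM in replicate 1 and 389 CPM in replicate 2, and Mir144, with 436 and 169. The white-cell and platelet genes, 5 of 5 detected and all called higher in replicate 2 with TMM, had a sum of 1928 CPM in replicate 1, against 2617 CPM in replicate 2. Mir150 was at 547 and 724 CPM, and Mir342, at 583 and 568 CPM, turns towards replicate 1 with total counts. Red-cell genes thus moved with Mir126a and white-cell genes on balance did not. The hepatocyte gene Mir122, which also moved with Mir126a, had 1503 CPM in replicate 1 and 146 CPM in replicate 2.
Of the endocrine and chromaffin genes, 4 of 4 were detected, with 31668 CPM in replicate 1 and 25395 CPM in replicate 2, led by Mir375 at 28922 and 22246 and Mir7b at 2569 and 3010. The fibroblast genes, 3 of 4 detected with Mir199a-1 at 0 in both libraries, had a sum of 1549 CPM in replicate 1, against 288 CPM in replicate 2, led by Mir214 at 1528 and 264 and Mir199b at 13.9 and 20.8. The sums of these classes shared the direction of Mir126a, while in each class 1 gene was called towards replicate 1 and 1 towards replicate 2. The epithelial genes, 4 of 7 detected with 1 called towards replicate 1 and 2 towards replicate 2, summed to 873 and 3729 CPM, nearly all of it Mir203, followed by Mir200c at 26.1 and 20.1. The striated muscle genes, 1 of 5 detected and that one called towards replicate 2 with TMM, with Mir1a-1 and Mir133a-2 at 0 in both, summed to 476 and 495 CPM, nearly all of it Mir206, followed by Mir1a-2 at 2.04 and 0.660. Reads that fit more than 1 copy of a gene count for none. For genes numbered as copies, such as those of Mir199a, Mir1a and Mir133a, counts at or near 0 therefore do not show absence. Each of these sums was below the level of Mir126a in the same library.

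The genes whose ratio between the libraries was most like that of Mir126a, among those with at least 1000 sense counts in both, were Mir16-1, Mir671, Mir451a, Mir425 and Mir672. Likeness here is the distance between log2 ratios over 2 libraries and is a description of single ratios. Their log2 ratios were 0.63 for Mir16-1, 0.68 for Mir671, 0.59 for Mir451a, 0.70 for Mir425 and 0.58 for Mir672. All were far less abundant than Mir126a. The highest was Mir16-1, of the cluster lost in chronic lymphocytic leukaemia in humans, with 1343 CPM in replicate 1 and 704 CPM in replicate 2. Mir451a, made in maturing red cells, averaged 556 ± 235 CPM (SD, n = 2).
The hairpin of Mir126a has a GC content of 45.2%, against a median of 51.3% over the tested genes. The 155 tested genes within 5 percentage points of it had a median log2 ratio of -0.11, so the ratio of Mir126a was further from genes of like base composition than from 0.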

How the data were processed

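MicroRNA-seq was done on 2 adrenal gland libraries of 1 group. The authors deposited raw counts of reads for each miRNA gene, in 3 columns. Another 4 entries (unmapped, multimapped, outside the genes, ambiguous) stand for no gene and were kept out of totals, and they took 61.4% of the reads in replicate 1 and 59.8% in replicate 2. The notes deposited with each library name mm10 and GENCODE M21, and for aligner, counter and trimming the sources used here give no name. The columns carry no header. Each column with its summary entries added up to the same total (13973580 reads in replicate 1 and 7530945 in replicate 2), and they were read as unstranded, sense and antisense counts. Multimapped reads count for no gene. All 2202 identifiers matched the annotation. An abundant gene had at least 1000 sense counts in both libraries.

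TMM came from edgeR 4.0.16 and size factors from DESeq2 1.42.0 (R 4.3.3), on genes whose counts summed to 10 or more. A prior of 0.5 counts entered the log2 ratios only. A comparison of the 2 libraries puts 1 in each arm and leaves edgeR's quasi-likelihood test no residual degrees of freedom, so counts were compared by a binomial test, exact and two-sided, from scipy 1.17.1. The p-values were adjusted after Benjamini and Hochberg in statsmodels 0.14.6, and 0.05 was the threshold. The alternative error was a common dispersion that edgeR fitted to both libraries as 1 group. Scripts ran in Python 3.11.15 with numpy 2.4.6, pandas 2.3.3 and, for the plots, matplotlib 3.10.9. TMM with the binomial test was tried on simulated counts that held counting noise alone. That trial does not cover the wider spread between the real libraries. Shares have 95% Wilson intervals and a count of 0 has a floor of 3 counts.

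The members, lists and tests were chosen with earlier results of these data known. The named genes were the members, the 5 next most abundant genes, the top 6 of the vascular list, the top 2 of each cell type list, the 5 nearest ratios, the leading opposite-strand pairs, the flanking miRNA genes and genes sharing a seed. Mir210, Mir92-1, Mir19b-1, Mir6715, Mir129-1, Mir299b and the genes with antisense reads were named after their values were seen. Alternatives covered scaling, denominators, count minimums, strand, prior, thinning and leaving out each library. The comparison with genes of like GC content was added after seeing the data.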

Additional observations from a re-analysis of the deposited data

How the results depend on the processing

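The ratio of Mir126a between the libraries kept its direction under every alternative run, from a log2 ratio of 0.57 with DESeq2 size factors to 0.94 with total counts. It lost its call with counts without strand (0.72, adjusted p = 0.652 in the exact binomial test), where 14 reads remain, and with the pooled spread as the error (0.64, adjusted p = 0.999), which is fitted to the same 2 libraries and by construction leaves little room for a call. The ratio of Mir126b was called under none of the alternatives that gave a test, and its log2 ratio turned to 0.21 with total counts, 0.16 with all reads of the library and 0.16 relative to genes of like GC content. The cause of these turns was not tested. The ratio of Mir126b could not be tested without strand or with a minimum of 100 counts. Per 1000000 reads of the library the mean level of Mir126a was 39665 and that of Mir126b was 1.97. Without strand these levels were 1.91 CPM and 0 CPM, and Mir126a ranked 374. With Mir126a left out of the total, Mir126b had 5.58 CPM. Leaving out either of the 2 libraries returns the values of the other, so these ranges restate the single libraries and are no further check. The level of Mir126a ranged from 69285 to 133209 CPM, its rank from 1 to 2 and the level of Mir126b from 4.62 to 5.37 CPM. The Mir126b share of the pair ranged from 0.00403 to 0.00667% and the detected genes of the vascular list from 26 to 27. Over all genes 228 to 273 were called, except for 0 with the pooled spread in edgeR (24 at an unadjusted p under 0.05). The number tested changed too, so the share called moved more than the count. It was 254 of 434 in the main run, 228 of 284 with a minimum of 100 counts and 248 of 769 with no filter beyond 1 count. Depth limits Mir126b, whose 29 and 14 reads give its fold between the libraries an interval of 0.483 to 1.93. No paired analysis was possible because there is a single group.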
